A study of Mus musculus with 6 samples.

Results

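Cadherins are calcium-dependent adhesion proteins of the cell surface, and catenins are the proteins that tie classical cadherins to actin. Their RNA levels were compared between Noto-GFP-positive cells and the GFP-negative remainder of the same tissue, taken from the posterior end of mouse embryos. Probe sets were chosen by symbol alone: those with exactly 1 gene symbol in the platform annotation, where the symbol begins with Cdh, Cdhr, Pcdh, Fat, Dchs, Dsc or Dsg followed by a digit, or is an alpha, beta or delta catenin (Ctnna, Ctnnb or Ctnnd followed by a digit). Cdh5 and Pcdh8 were left out. The choice gave 109 of the 45101 probe sets on the array, for 53 of 18193 genes.

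The GFP-positive group held 3 arrays of cells that expressed GFP from Noto, which encodes a homeobox factor made in the node and in notochord progenitors. The GFP-negative group held 3 arrays of all other cells of the same dissected tissue, a mixture of cell types. All embryos were heterozygous Noto-GFP, on a mixed 129S3;ICR background, of both sexes, at embryonic day 8.5 with a median of 6 somites. Tissue behind the first somites was pooled from 23, 39 or 52 embryos (pools 1, 2 and 3), so no array represents 1 animal, and each pool gave 1 array of each group. The sample descriptions give 1% trypsin for all 6 arrays. About 2600, 4300 and 6600 GFP-positive cells were sorted.

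Classical cadherins bind the same or a similar cadherin on the neighbouring cell, and their tails hold beta-catenin and p120-catenin, with alpha-catenin linking the complex to actin. Epithelia are known for E-cadherin, while the neural plate and much mesoderm carry N-cadherin. Protocadherins have weaker adhesion and often act beside N-cadherin. The giant Fat and Dachsous proteins bind each other across cells and orient cells in a plane, and desmosomal cadherins anchor keratin filaments.

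The deposited values are array intensities scaled to 1 common level. Array medians were 22.9, 20.3 and 19.8 for GFP-positive cells of pools 1, 2 and 3, and 23.2, 23.4 and 28.0 for GFP-negative cells. Values near or below them may be background. In each pool the GFP-positive median was the lower, and its part in the differences of dim genes was not tested. Both arrays of pool 1 stood apart in RNA quality. Signal from the 3′ end of Gapdh exceeded that from its 5′ end 14.0-fold (GFP-positive) and 15.4-fold (GFP-negative) in this pool, but only 1.60- to 2.22-fold elsewhere. All 5 node and notochord markers measured were higher in GFP-positive cells, with a summed intensity between 6728 and 9117, against 152 to 569 in GFP-negative cells. Each array is a bulk sample, so fewer cells of a type and less RNA per cell cannot be told apart.

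E-cadherin (Cdh1) and Pcdh19 had the largest differences among the members, both higher in GFP-positive cells, and Cdhr4 was also higher. Pcdh12, a protocadherin of endothelium, was lower. Of the 53 genes, 31 had a probe set that passed the filter on low values, Cdhr4 mostly through GFP-positive arrays. In a limma fit with group as the only term, 3 of these 31 were higher and 1 was lower at an adjusted p under 0.05, and 27 did not pass. Over all 12628 genes tested, 2.6% were higher and 1.41% lower. The median log2 fold change was -0.00 over the 31 members and 0.01 over all genes. With the pool as a block, 7 members were higher and 2 lower, where 8.4% of all genes were higher and 6.76% lower. The additional members were Cdh2, Fat3, Fat4 and Cdh10, which were higher, and Cdh6, which was lower. The groups did not overlap, with GFP-positive cells higher, for 10 members (15.6% of all genes), and with GFP-positive cells lower for 5 (12.2% of all genes). Without pool 1, 7 of 28 members measured were higher and 4 lower, where 19.5% and 17.9% of all genes were.

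**Figure D1:**
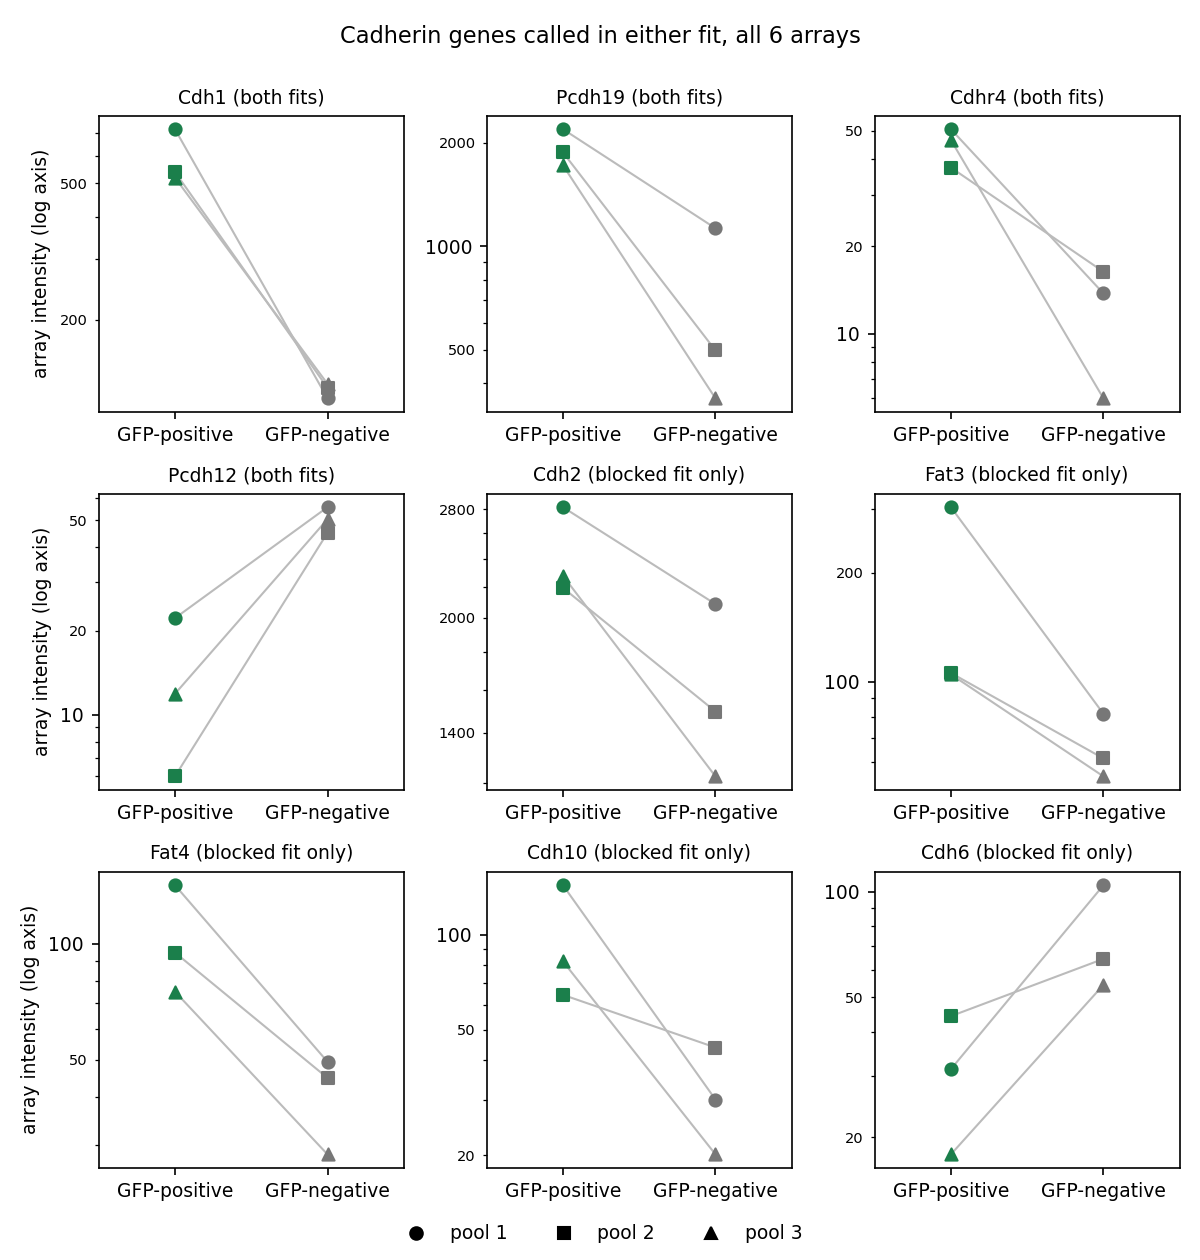
Array intensity (log axis) of the 9 cadherin genes called in either fit, in GFP-positive (green) and GFP-negative (grey) cells, with a line joining the arrays of each pool. All GFP-positive values lie above all GFP-negative values in 7 panels, and below them for Pcdh12 and Cdh6.

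Among the type I classical cadherins, Cdh1 (E-cadherin, the cadherin of epithelia) rose about 3.95-fold on the offset log scale. Its intensity was 720, 540 and 520 in GFP-positive cells of pools 1, 2 and 3, against 118, 127 and 130 in GFP-negative cells. The groups were far apart, with means of 593 ± 110 in GFP-positive cells and 125 ± 6.25 in GFP-negative cells (SD, n = 3 each). Its log2 fold change was 1.98 ± 0.21 (SE, adjusted p = 0.0033), and the differences within pools were 2.33, 1.85 and 1.77. Without pool 1 it was 1.81. Markers of 2 other epithelia that the tissue may hold were read beside it. Gut endoderm markers (3 of 5 measured higher, 0 lower) summed to between 1314 and 2858 in GFP-positive cells, against 520 to 833 in GFP-negative cells. Epcam was the largest part of this sum on each GFP-positive array. Cldn6 passed with the pool as a block only. Sox17 passed in neither fit (log2 fold change 0.61, limma adjusted p = 0.255), and its groups overlapped. Surface ectoderm markers (4 of 4 lower) summed to between 37.1 and 50.5 in GFP-positive cells, against 183 to 259 in GFP-negative cells. The part of either in the level of Cdh1 was not tested.

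Cdh2 (N-cadherin, of neural plate and mesoderm) had intensities of 2818, 2195 and 2279 in GFP-positive cells, against 2087, 1496 and 1223 in GFP-negative cells. It was bright on all 6 arrays, and the lowest GFP-positive value was close to the highest GFP-negative one. The log2 fold change of 0.62 ± 0.24 (SE) missed the threshold in the fit without pools (adjusted p = 0.178) and met it once pools were blocked (adjusted p = 0.0408). Its other kept probe set had 668, 744 and 654 in GFP-positive cells, against 467, 335 and 293 in GFP-negative cells, with no overlap and a log2 fold change of 0.88. Both probe sets of Cdh2 had their higher value in GFP-positive cells in every pool, as Cdh1 did. Neural plate markers, known to lie in tissue rich in N-cadherin, summed to between 595 and 645 in GFP-positive cells and to between 447 and 826 in GFP-negative cells, and the groups overlapped. Sox2 made up most of this sum, and its groups overlapped, as did those of Sox3. Pax6 was lower without overlap, with a log2 fold change of -0.61 (limma adjusted p = 0.0825, and 0.038 with the block). Sox1 was also lower without overlap, at -0.25, but passed in neither fit.

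The change of Cdh1 exceeded that of Cdh2 in every pool, by 1.90, 1.31 and 0.89 on the log2 scale in pools 1, 2 and 3. The mean of this difference between the changes was 1.36. An exact two-sided permutation test over the 6 arrays gave p = 0.1, the smallest p this test allows with 3 against 3 arrays. The test ignored the pairing of arrays by pool.

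The other type I cadherins were dim and did not pass. Cdh3 (P-cadherin) had 19.8, 25.3 and 30.3 in GFP-positive cells, against 8.64, 56.1 and 55.1 in GFP-negative cells. Its GFP-negative value was high in pools 2 and 3 and low in pool 1. The log2 fold change was -0.25 ± 0.30, and without pool 1 it was -0.55 (adjusted p = 0.0299). Cdh15 (M-cadherin, of muscle precursors) had 14.1, 17.7 and 23.9 in GFP-positive cells, against 17.7, 40.7 and 53.6 in GFP-negative cells, with a log2 fold change of -0.42 ± 0.22 and, without pool 1, -0.58 (adjusted p = 0.0319). Cdh4 (R-cadherin) lay between 30.3 and 41.9 on all 6 arrays, with a log2 fold change of -0.00 ± 0.16.

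Type II cadherins are close relatives with a different adhesive contact, and 5 of 10 were measured. None passed in the limma fit without pools, while Cdh10 and Cdh6 passed in opposite directions with the pool as a block. At an unadjusted p under 0.05 these same genes gave 1 higher and 1 lower of the 5, where 12% of all genes were higher and 9.67% lower by that rule. Cdh10, a cadherin known from neurons, had 143, 64.4 and 82.2 in GFP-positive cells, against 30.0, 43.9 and 20.1 in GFP-negative cells. All GFP-positive values were higher, with the widest gap in pool 1. Its log2 fold change was 0.99 ± 0.27 (adjusted p = 0.078, and 0.0265 with the block). Cdh6 (K-cadherin, of kidney and neural crest) had 31.3, 44.2 and 17.9 in GFP-positive cells, against 104, 64.4 and 54.3 in GFP-negative cells. The groups did not overlap, and the log2 fold change was -0.75 ± 0.24 (adjusted p = 0.129, and 0.0362 with the block). Lateral mesoderm markers, of which 5 of 6 were lower, summed to between 310 and 500 in GFP-positive cells, against 1914 to 4451 in GFP-negative cells, and their part in Cdh6 was not tested. The other kept probe sets of Cdh10 and Cdh6 had the same sign, at 0.42 and -0.37. That of Cdh6 passed the filter on low values mostly through GFP-negative arrays, so its direction is not independent of that filter.

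Cdh11, the OB-cadherin of mesenchyme, had 274, 257 and 315 in GFP-positive cells, against 273, 494 and 350 in GFP-negative cells. The values of pool 1 were nearly equal, and the log2 fold change was -0.33 ± 0.25. Cdh20 was at or below 37.7 on all arrays and had -0.29 ± 0.25. Cdh22 had 0.01 ± 0.17. Of the 5 other cadherins only Cdh13, the T-cadherin that is held to the membrane by a lipid anchor, was measured. Its intensities were 39.3, 27.6 and 45.9 in GFP-positive cells, against 26.4, 25.3 and 5.65 in GFP-negative cells, with a log2 fold change of 0.46 ± 0.22 that did not pass. A second kept probe set for Cdh13 went the other way, at -0.17.

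**Figure D2:**
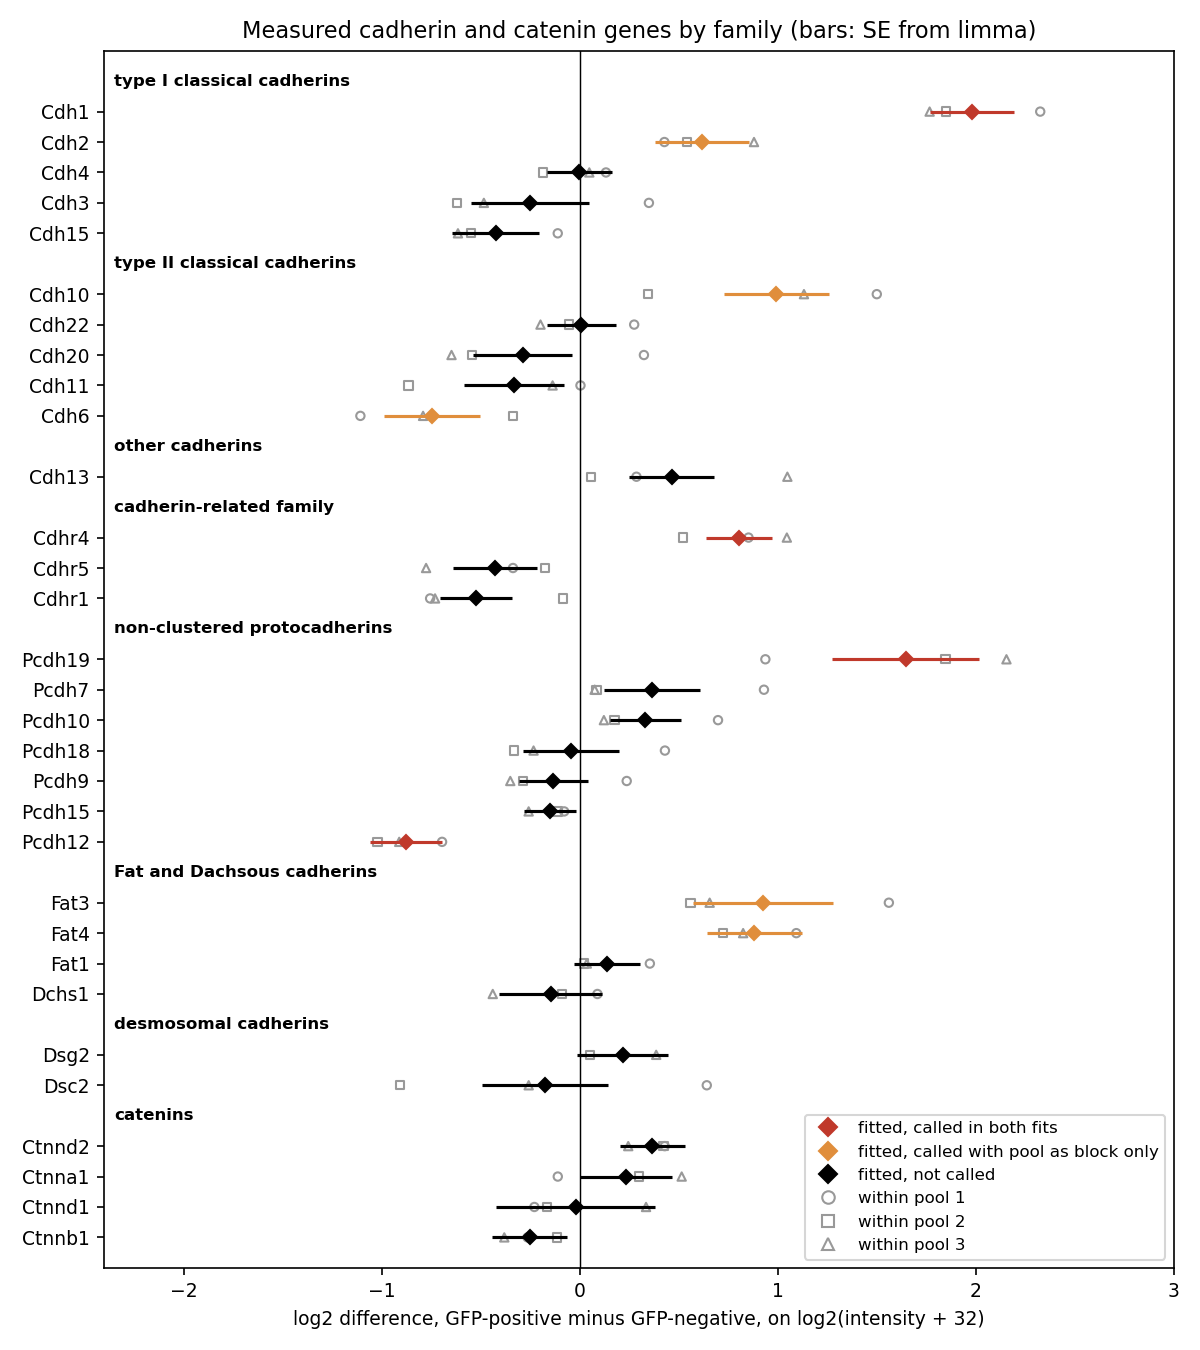
Log2 difference between GFP-positive and GFP-negative cells for the 31 measured members by family: diamonds are fitted values with SE from limma, open symbols the differences within each pool. Cdh1 and Pcdh19 lie farthest to the right (1.98 and 1.65) and Pcdh12 farthest to the left (-0.88), while most others lie near 0.

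Of the 11 protocadherins, 7 were measured, and 1 was higher and 1 lower. Pcdh19, a protocadherin of the brain and early embryo that is known to act together with N-cadherin, was higher in GFP-positive cells on all 3 of its kept probe sets. The brightest had 2191, 1876 and 1721 in GFP-positive cells, against 1129, 498 and 362 in GFP-negative cells. The GFP-negative array of pool 1 was the highest of its group and still lay below every GFP-positive array. Means were 1930 ± 240 in GFP-positive cells and 663 ± 409 in GFP-negative cells (SD, n = 3 each). Its log2 fold change was 1.65 ± 0.37 (adjusted p = 0.0481, and 0.00502 with the block), and the differences within pools were 0.94, 1.85 and 2.16. Without pool 1 it was 2.00 (adjusted p = 8.84e-05). The call was lost when any 1 array but GFP-negative array 1 was left out (values of 1.31 to 1.72, adjusted p between 0.11 and 0.199). The next probe set had 1167, 1128 and 1026 in GFP-positive cells, against 500, 524 and 429 in GFP-negative cells, which was tighter within groups. It gave 1.14 ± 0.19 and passed over all probe sets (adjusted p = 0.0296), while the brightest did not over probe sets (adjusted p = 0.0683). The dimmest had 0.56 ± 0.21 and did not pass. Paraxial mesoderm markers, of which 3 of 6 were higher and 0 lower, summed to between 1881 and 2163 in GFP-positive cells, against 702 to 814 in GFP-negative cells. Foxc2 and Tbx6 passed with the pool as a block only, and Msgn1 in neither fit. The groups of Tbx6 and Msgn1 overlapped, and Msgn1 was lower in GFP-positive cells in pool 3. The part of these markers in Pcdh19 was not tested.

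Pcdh12, known as a protocadherin of endothelium, fell. It had 22.2, 5.99 and 11.9 in GFP-positive cells, against 55.8, 45.1 and 50.5 in GFP-negative cells. The GFP-positive values lay below the array medians, and the GFP-negative values above them. They averaged 13.4 ± 8.23 in GFP-positive cells and 50.5 ± 5.34 in GFP-negative cells (SD, n = 3 each). This was a log2 fold change of -0.88 ± 0.18 (adjusted p = 0.038), and its 2 other probe sets were too dim to be kept. Leaving out either array of pool 2 or pool 3 ended the call (values of -0.92 to -0.76, adjusted p between 0.103 and 0.205). Endothelial markers moved with it: 5 of 5 measured (Kdr, Sox7, Etv2, Tek and Esam) were lower, and the 8 on the array summed to between 176 and 374 in GFP-positive cells, against 1387 to 1936 in GFP-negative cells. Emcn and Tie1, both defining endothelial genes, lay below the median of every array. The part of endothelium in the difference of Pcdh12 was not tested.

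The other 5 measured protocadherins did not pass. Pcdh7 had 150, 96.1 and 78.2 in GFP-positive cells, against 63.5, 88.8 and 72.6 in GFP-negative cells, a difference that came mostly from pool 1, and a log2 fold change of 0.36 ± 0.24. Pcdh10 had 36.3, 16.2 and 12.6 in GFP-positive cells, against 10.1, 10.7 and 9.01 in GFP-negative cells, with 0.33 ± 0.18. It passed the filter on low values through GFP-positive arrays alone, so its direction is not independent of that filter. Pcdh18, Pcdh9 and Pcdh15 had log2 fold changes of -0.04, -0.13 and -0.15.

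Of the cadherin-related genes, which carry cadherin repeats without the classical tail, Cdhr4 rose, at low intensity. It had 50.6, 37.3 and 46.4 in GFP-positive cells, against 13.7, 16.3 and 5.98 in GFP-negative cells. All GFP-positive values lay above the array medians and all GFP-negative ones below, with averages of 44.8 ± 6.79 in GFP-positive cells and 12.0 ± 5.39 in GFP-negative cells (SD, n = 3 each). The log2 fold change was 0.81 ± 0.17 (adjusted p = 0.038), and its second kept probe set had 37.6, 15.98 and 27.0 in GFP-positive cells, against 1.59, 0.717 and 3.48 in GFP-negative cells, with 0.78 ± 0.16. This second probe set passed the filter on low values through GFP-positive arrays alone, so its direction is not independent of that filter. The brighter one reached the filter level on 3 GFP-positive arrays and 1 GFP-negative array. It was thus kept mostly through GFP-positive arrays, and its direction is also not independent of that filter. With no filter it did not pass in limma (adjusted p = 0.0744). Without any 1 array other than GFP-negative array 1 it no longer passed (values of 0.70 to 0.88, adjusted p between 0.0788 and 0.17). The name of the brighter probe set marks it as one that may detect more than 1 transcript. Cdhr1, a photoreceptor cadherin, had -0.52 ± 0.18, and Cdhr5, a cadherin of the intestinal brush border, had -0.43 ± 0.21. For each the groups did not overlap, yet neither passed (adjusted p = 0.144 and 0.277). Cdhr2 and Cdhr3 were not measured.

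**Figure D3:**
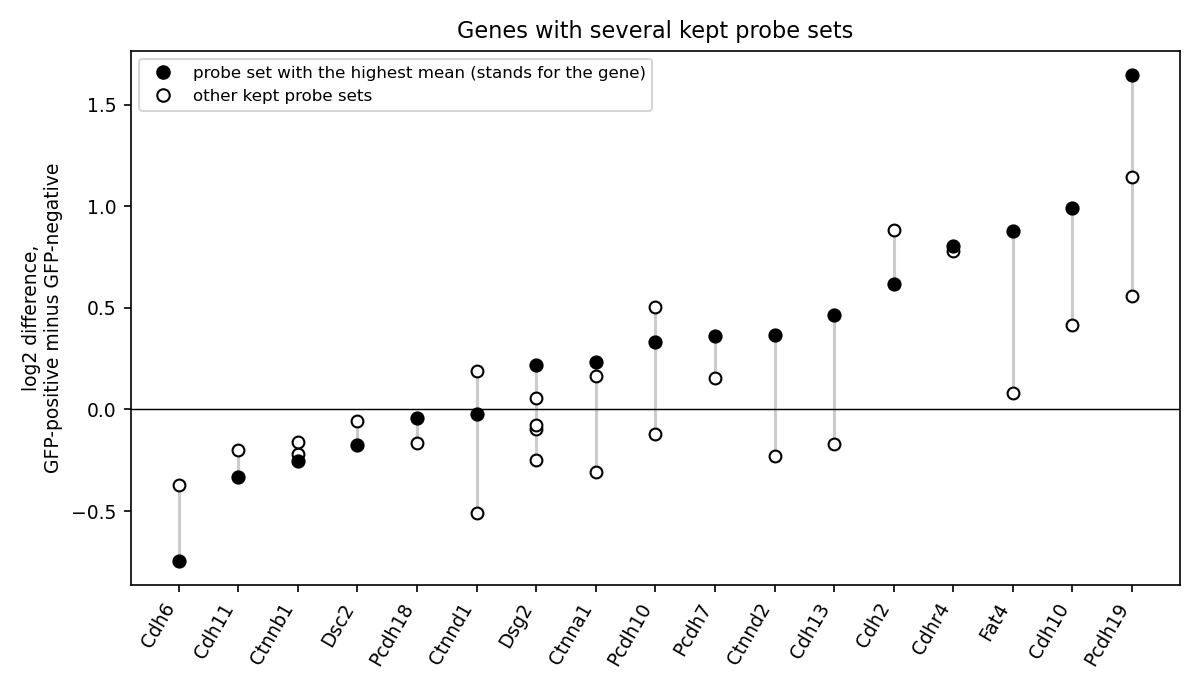
Log2 difference between GFP-positive and GFP-negative cells for each kept probe set of the 17 members with several: filled points stand for the gene, open points are its other probe sets. The probe sets of Pcdh19, Cdhr4 and Cdh2 all lie above 0, and those of Ctnnd1, Ctnna1 and Ctnnd2 lie on both sides of it. The open point of Cdhr4 is a probe set kept through GFP-positive arrays alone.

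Promoters are shown for the called members Pcdh19 and Cdhr4 and for Cdh10 and Cdh6, the type II pair that differed in opposite directions. Of the 9 members called in either fit, 6 matched the RefSeq promoter table (GRCm38.p6); Cdh1, Cdh2 and Pcdh12 did not. The sequences are the 250 bases before the annotated start, 5′ to 3′ on the gene's strand, with capitals for matches to the forkhead motif TGTTTAC or the E-box CAGGTG, a sequence that Snail and Zeb repressors can bind, searched on both strands. They lie at chrX:133688994-133689243 (minus strand) for Pcdh19, chr9:107992207-107992456 (plus) for Cdhr4, chr15:18820079-18820328 (plus) for Cdh10 and chr15:13173676-13173925 (minus) for Cdh6.
Pcdh19: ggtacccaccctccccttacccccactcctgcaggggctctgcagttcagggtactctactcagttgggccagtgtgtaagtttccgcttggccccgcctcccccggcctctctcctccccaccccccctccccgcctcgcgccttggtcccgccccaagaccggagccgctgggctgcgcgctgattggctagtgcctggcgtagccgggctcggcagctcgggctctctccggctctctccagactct
Cdhr4: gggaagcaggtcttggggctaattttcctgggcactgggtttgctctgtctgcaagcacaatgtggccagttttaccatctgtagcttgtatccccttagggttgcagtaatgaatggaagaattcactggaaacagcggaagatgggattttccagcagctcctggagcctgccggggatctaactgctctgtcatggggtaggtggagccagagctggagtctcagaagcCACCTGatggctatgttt
Cdh10: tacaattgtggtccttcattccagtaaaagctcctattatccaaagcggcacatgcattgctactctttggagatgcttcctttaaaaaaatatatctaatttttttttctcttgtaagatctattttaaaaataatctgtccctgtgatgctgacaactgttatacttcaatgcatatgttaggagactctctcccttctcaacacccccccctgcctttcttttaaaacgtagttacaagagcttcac
Cdh6: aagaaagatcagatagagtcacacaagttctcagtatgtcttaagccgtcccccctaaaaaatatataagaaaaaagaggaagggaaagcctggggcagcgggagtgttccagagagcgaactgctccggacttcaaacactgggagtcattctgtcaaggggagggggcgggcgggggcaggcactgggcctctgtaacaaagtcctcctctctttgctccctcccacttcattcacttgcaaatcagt
The Pcdh19 window was rich in G and C (69.2%), that of Cdh10 poor (36.8%), and those of Cdhr4 (52%) and Cdh6 (51.2%) near the median of all windows (52.4%). Cdhr4 alone of these 4 held an E-box, which begins 18 bases before the start, and none held the forkhead letters. Of 32851 windows, 17.2% held the E-box and 3.17% the forkhead motif. Among the 20 measured members with an entry, 4 held the E-box and 0 the forkhead motif. A match is only a run of letters in this window.

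Of the Fat and Dachsous cadherins, 4 of 5 were measured, and none passed in limma with group alone. At an unadjusted p under 0.05, Fat3 and Fat4 (2 of 4, against 12% of all genes) had higher values, and both passed with the pool as a block. Fat3 had 303, 106 and 105 in GFP-positive cells, against 81.6, 61.5 and 54.8 in GFP-negative cells. Every GFP-positive value was higher, and the pool 1 array was far above the other two. The log2 fold change was 0.93 ± 0.35 (adjusted p = 0.177, and 0.031 with the block), and 0.61 without pool 1. Fat4, the partner of Dchs1, had 142, 94.8 and 75.0 in GFP-positive cells, against 49.4, 44.8 and 28.4 in GFP-negative cells. Its differences within pools were even, at 1.09, 0.72 and 0.83, with a log2 fold change of 0.88 ± 0.24 (adjusted p = 0.0825, and 0.014 with the block). The other kept probe set of Fat4 did not show this, at 0.08 ± 0.27, so the gene's difference rests on 1 of 2 probe sets. Without pool 1 that other probe set is the brighter one and stands for Fat4, at 0.03. Fat1 was bright and nearly level, with 4257, 3508 and 3769 in GFP-positive cells and 3323, 3453 and 3675 in GFP-negative cells, and 0.14 ± 0.16. Dchs1 had 17.5, 39.0 and 32.2 in GFP-positive cells, against 14.6, 43.5 and 55.1 in GFP-negative cells, with -0.15 ± 0.26.

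Desmosomal cadherins join cells that carry keratin filaments, and only Dsg2 and Dsc2 of 6 were measured. Neither passed in limma in either fit, and 0 had an unadjusted p under 0.05. Dsg2 had 280, 225 and 213 in GFP-positive cells, against 237, 216 and 156 in GFP-negative cells, with a log2 fold change of 0.22 ± 0.23. Dsc2 had 291, 224 and 282 in GFP-positive cells, against 175, 448 and 343 in GFP-negative cells. The groups overlapped for both, and Dsc2 was higher in GFP-positive cells in pool 1 and lower in pools 2 and 3 (0.64, -0.91 and -0.26), with a log2 fold change of -0.17 ± 0.32. Without pool 1 Dsc2 had -0.58 (adjusted p = 0.0315). Dsc1, Dsc3, Dsg1a and Dsg1b were not measured, with no value above 19.0.

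None of the 4 measured catenins passed in limma in either fit, and 0 had an unadjusted p under 0.05. Ctnnb1 (beta-catenin, which holds the cadherin tail and also carries the WNT signal) was very bright, with 10101, 7822 and 7616 in GFP-positive cells and 12128, 8471 and 9925 in GFP-negative cells. Each pool had the lower value in GFP-positive cells, but the groups overlapped, and the log2 fold change was -0.25 ± 0.19. Ctnna1 (alpha-catenin, the link to actin) had 5458, 4468 and 4886 in GFP-positive cells, against 5895, 3626 and 3409 in GFP-negative cells, with 0.23 ± 0.23. Without pool 1 Ctnna1 had 0.41 (adjusted p = 0.0225). Ctnnd1 (p120-catenin, which keeps cadherins at the surface) had 208, 475 and 589 in GFP-positive cells, against 249, 537 and 460 in GFP-negative cells, low on both arrays of pool 1, with -0.02 ± 0.40. Ctnnd2 (delta-catenin, a neural relative) had 59.1, 59.7 and 52.9 in GFP-positive cells, against 35.6, 36.3 and 39.6 in GFP-negative cells. Those groups did not overlap, but the log2 fold change of 0.37 ± 0.16 did not pass (adjusted p = 0.239), and its other kept probe set had -0.23. The kept probe sets of Ctnna1 and Ctnnd1 also disagreed in sign.

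Over all members, 17 had several kept probe sets, which agreed in sign for 11 and disagreed for 6. The 11 include Cdhr4, whose second probe set was kept through GFP-positive arrays alone. They also include Cdh6, whose second probe set was kept mostly through GFP-negative arrays. For both, the agreement is not independent of the filter. By probe set, 2 of 56 kept were higher (Cdh1 and 1 of Pcdh19) and 0 lower in limma by adjusted p, against 1.26% and 0.55% of all kept probe sets. At an unadjusted p under 0.05, 12 were higher and 5 lower, against 8.89% and 10%. With the block these counts were 9 and 2, against 4.93% and 4.93%. Of the 31 measured members, 20 reached the level of the filter on all 6 arrays. The other 22 genes had no probe set that passed the filter. Their highest intensity on any array was 39.6, for Pcdh1 on a GFP-negative array, and 33.5, for Ctnna2 on a GFP-positive array. The other 20 lay at 20.8 or below on every array. Cdh7, Cdh8, Cdh9, Cdh16, Cdh17, Cdh18, Cdh19, Cdh23, Cdh26, Fat2, Ctnna3, Pcdh11x, Pcdh17 and Pcdh20 were among them, so a difference in these was not detectable here.

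**Figure D4:**
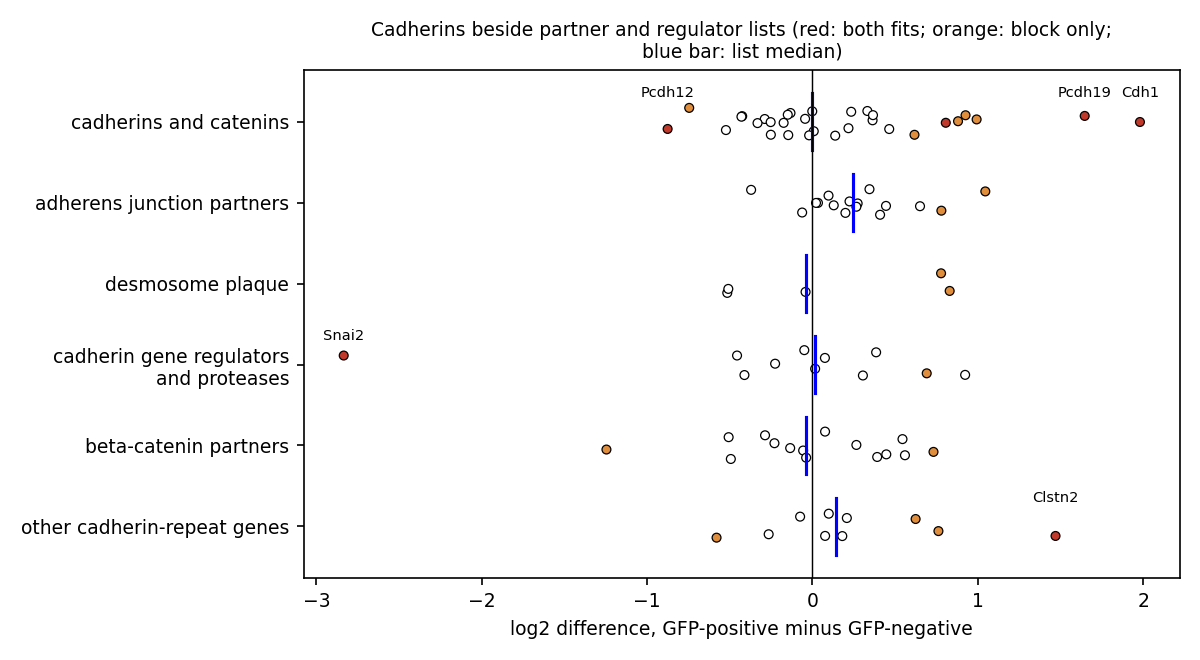
Log2 difference between GFP-positive and GFP-negative cells for the measured cadherins and catenins beside the genes of 5 partner and regulator lists, each point a gene, with blue bars for list medians. Snai2 (-2.83) lies far to the left and Clstn2 (1.47) to the right, and the other list genes lie between -1.25 and 1.05.

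Genes that work with cadherins were read from 5 lists. Of 16 measured adherens junction partners, 0 passed in limma. At an unadjusted p under 0.05, 3 were higher and 0 lower, against 12% of all genes higher. With the block 2 were higher, against 8.4% of all genes. The median log2 fold change of the 16 was 0.25, against 0.01 over all genes. Nectin2, an adhesion protein of the same junction, had 1.05 ± 0.30 (adjusted p = 0.0962, and 0.0442 with the block), Ablim1, an actin-binding protein, 0.65 ± 0.22 and Ajuba, which binds alpha-catenin, 0.78 ± 0.31 (0.0212 with the block). Of 5 desmosome plaque genes 0 passed in limma. At an unadjusted p under 0.05, 2 were higher, against 12% of all genes, and with the block 2 were higher, against 8.4%. Perp, a membrane protein of desmosomes (0.83 ± 0.26), and Dsp, desmoplakin (0.78 ± 0.26), passed with the block and were higher, and Pkp3 had -0.52 ± 0.27.

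Of 11 measured genes that repress, activate or cut cadherins, 1 fell, where 1.41% of all genes were lower. This was Snai2, a repressor of Cdh1 in migrating cells, with 179, 178 and 81.0 in GFP-positive cells, against 1469, 1200 and 952 in GFP-negative cells. Its log2 fold change was -2.83 ± 0.30 (adjusted p = 0.00317), and the differences within pools were -2.83, -2.56 and -3.12. Snai1 had -0.46 ± 0.20, and Tcf3 0.69 ± 0.25 (adjusted p = 0.0448 with the block only). Elsewhere on this list, Zeb2 had 0.92 ± 0.71, Zeb1 -0.41 ± 0.32 and Twist1 -0.05 ± 0.21, and none of these passed in either fit. Zeb2 differed by pool, with -0.30, 1.64 and 1.43 in pools 1, 2 and 3. Without pool 1 another probe set stood for Zeb2, at -1.44. Of 15 beta-catenin partners 0 passed in limma (unadjusted, 4 had a p under 0.05: Pygo2, Axin2 and Tcf7l2, higher, and Bcl9l, lower, against 12% and 9.67% of all genes). Pygo2, a nuclear cofactor of beta-catenin, had 0.73 ± 0.21, Axin2, a target and brake of WNT signalling, 0.56 ± 0.19 and Tcf7l2, a DNA-binding partner, 0.54 ± 0.22. With the block Pygo2 was higher (adjusted p = 0.032) and Gsk3b, the kinase that marks beta-catenin for decay, was lower (adjusted p = 0.0314), but Gsk3b had 680, 1092 and 1096 in GFP-positive cells, against 775, 3833 and 3832 in GFP-negative cells, with little difference in pool 1.

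Of 10 measured genes with cadherin repeats that the symbol rule does not take in, or that act on such genes, 1 rose. Over all genes 2.6% were higher. Clstn2, a calsyntenin of the cell surface, had 191, 105 and 110 in GFP-positive cells, against 42.7, 19.9 and 20.7 in GFP-negative cells, with no overlap. Its log2 fold change was 1.47 ± 0.26 (adjusted p = 0.0217). Celsr1, a planar polarity cadherin, had 0.76 ± 0.20 and Celsr3 -0.58 ± 0.15, and both passed with the block only (adjusted p = 0.0233 and 0.0412). Clstn1, another calsyntenin, had 0.62 ± 0.22 and was also higher with the block only (adjusted p = 0.0445).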

How the data were processed

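RNA of sorted cells was amplified through both cycles of an Affymetrix labeling protocol and hybridized to 6 arrays, per the labels' protocols. The deposited values are linear array intensities from GCOS 1.4, per the submitters' processing notes; the 2% trimmed mean was 150 on every array. Other settings are not given in the sources used here, and with 3 arrays in each group precision is limited. Of 45101 probe sets, 34945 had 1 symbol, 932 several and 9160 none, and 64 were controls. All 53 member genes were found by identifier in RefSeq (GRCm38.p6), where 0 symbols differed.

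Values were transformed to log2(intensity + 32), which understates changes of dim genes. Probe sets at or above the 40th percentile of the array on at least 3 arrays were used (27821). limma 3.58.1 in R 4.3.3 (lmFit, then eBayes with trend) had group as its only term. For each of 12628 genes the probe set with the highest mean among those used stood in, and p-values were adjusted over these genes (Benjamini-Hochberg, threshold 0.05). Errors are limma SEs, or SDs where stated. Both arrays of a number share 1 pool of embryos per the labels, which pairs them; deviations from group means correlated within pools at 0.542, 0.286 and 0.436, and between arrays of different pools at -0.523 to 0.38. Values with the pool as a block are given where a call changes.

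Named with values were all measured type I cadherins, catenins, Fat and Dachsous genes, every other member called in either fit, the 2 largest changes in what remained of each family, and the 3 smallest adjusted p of each partner list; further genes were named after their values were seen. Marker sums use the brightest probe set of each gene. The members and lists were chosen with earlier results of these data known. Alternatives varied the offset, normalization, filter, variance model, block, threshold and probe set rule, and left out each array and pool.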

Additional observations from a re-analysis of the deposited data

How the results depend on the processing

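Of 467 values of the 27 members named by the rule under the alternatives, 400 kept their direction and their side of the threshold, 25 kept direction but no longer passed, 18 newly passed and 24 changed sign; 19 of these 27 never changed sign. Cdh1, Cdhr4, Pcdh19 and Pcdh12 all stayed called with an offset of 16 or 64, with quantile normalization, with the mean of probe sets, and with variances estimated over gene-level probe sets alone, a setting added after seeing the data. In limma, 1 member was higher and 0 lower at an adjusted p under 0.01 (0.634% and 0.15% of all genes), and 5 were higher and 1 lower at 0.1 (5.14% and 3.6%). With no variance trend Pcdh19 lost its call (adjusted p = 0.0507), and with the filter at the 60th percentile Cdhr4 was not among the 19 members tested. With no filter 1 was higher and 0 lower of 53 (1.24% and 0.506% of all genes; 7 and 5 at an unadjusted p under 0.05). With the pool as a replicate block 7 were higher and 2 lower; with that block and without pool 1, also added after seeing the data, 8 were higher and 7 lower, where 22.4% and 21.3% of all genes were. Leaving out 1 array gave between 1 and 7 higher and between 0 and 3 lower, with 7 and 3 without GFP-negative array 1 (10.4% and 9.95% of all genes). Cdh1 was the only higher member when any 1 of the other 5 was left out, where 0.444% to 1.8% of all genes were higher. Without pool 1 there were 7 and 4, without pool 2 0 and 0 (4 and 3 at an unadjusted p under 0.05), and without pool 3 0 and 0 (6 and 1). For the settings without pool 2 or pool 3 no share of all genes is given here. Those counts are therefore not read as particular to the members. Cdh1 lay between 1.79 and 2.10 in 18 settings and missed the threshold only without pool 2 or pool 3. The difference between the changes of Cdh1 and Cdh2 stayed between 1.10 and 1.60.

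With all arrays in, none of the members whose sign changed had passed. Cdh4 had 7.17e-05 with an offset of 64, 0.0842 with quantile normalization and 0.0908 without pool 2, and lay between -0.0478 and 0.0745 with 1 array left out. Ctnnb1 had 0.0224 with quantile normalization, and Dsg2 -0.0296 with the mean of probe sets. With 1 array left out, Pcdh10 lay between -0.0952 and 0.35, Dchs1 between -0.41 and 0.0385, Dsc2 between -0.52 and 0.0876, Ctnnd2 between -0.24 and 0.39, and Ctnnd1 between -0.32 and 0.39. Dchs1 had 4.04e-05 without pool 3. Without pool 2, Dsc2 had 0.19, Ctnnd2 -0.43 and Ctnnd1 0.0532, and without pool 1 Ctnnd1 had 0.0844. In each setting the brightest kept probe set was chosen anew to stand for its gene. The negative values of Pcdh10 and of Ctnnd2 came from a probe set other than that used with all arrays. Causes of the other sign changes were not tested.

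Of the 31 measured members, 20 were at or above the filter level on all 6 arrays; for dim genes such as Cdhr4 and Pcdh12 the signal over background limits what can be read. Both arrays of pool 1 had low 5′ signal, and calls gained without pool 1 include Cdh3, Cdh15, Dsc2 and Ctnna1. The design has 3 pools. In the fit with group alone, p-values rest on the spread of arrays within each group. With the block they rest on the spread of the differences within pools. In both fits the eBayes step draws the spread of each probe set toward that of all probe sets used at a like intensity.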
